A study of Mus musculus with 12 samples.

Results

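Transcripts of the insulin-like growth factor (IGF) receptors and binding proteins were measured in single cells of mouse liver before and after birth, together with the ligand gene Igf1. The group holds 10 genes: Igf1, the receptor genes Igf1r and Igf2r, and the binding protein genes Igfbp1 to Igfbp7. They were chosen by gene symbol, by a rule that uses no measured value, but with earlier results of these data known. They come from the 22519 genes that the gene lists of both stages share (31053 genes at E16.5 and 22597 at P3), and all 10 were found. Livers came from embryos at E16.5 and pups at postnatal day 3 (P3) of crosses between Jag1Ndr/+ mice, and suspensions of dissociated liver cells, with dead cells removed, were run on the 10x Genomics droplet platform. Ndr (Nodder) is a missense allele of Jag1, a ligand of Notch receptors, and homozygous mice serve as a model of Alagille syndrome, in which bile ducts are too few. Because the allele changes a protein residue, Jag1 RNA does not check the genotype labels.

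The E16.5 libraries were Jag1+/+ replicate 1, Jag1Ndr/+ replicate 1, Jag1Ndr/Ndr replicates 1 and 2 (also written Jag1Ndr/Nd in the labels), and a matrix deposited under both Jag1+/+ replicate 2 and Jag1Ndr/+ replicate 2. The last pair had 0 differing counts over 23166 barcodes and enters every count once, under the name shared library. At P3 the matrices overlapped. The matrix labelled Jag1+/+ replicate 1 shared 19927 of its 29132 barcodes with that labelled Jag1Ndr/Ndr replicate 1, and the matrix labelled Jag1+/+ replicate 2 held all 15754 barcodes of that labelled Jag1Ndr/+ replicate 2. The 4 P3 libraries used were therefore library A (labelled Jag1+/+ replicate 1) and library B (labelled Jag1+/+ replicate 2), whose genotype is unclear, library C (labelled Jag1Ndr/Ndr replicate 1, without the barcodes of library A) and library D (labelled Jag1Ndr/+ replicate 1). Homozygous pups at P3 had been recognised by jaundice. The design text gives 2 individuals per genotype and stage, so a library was taken as an animal. Stage cannot be told apart from the dissociation, in which TrypLE was added at E16.5 only, or from the gene list and the software version of the matrices.

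The matrices held 75745209 to 258642858 unique molecular identifiers (UMIs, counted molecules) per library, and 15024 to 29034 barcodes per library had at least 1000 UMIs with at most 15% of them mitochondrial. Clusters were formed without the 10 genes. From marker genes, 11 cell classes present at both stages were named by likeness: hepatocyte, endothelial, mesenchymal, macrophage, monocyte, neutrophil, basophil and mast, megakaryocyte, B, T and NK, and erythroid. Levels are CPM, the counts of a gene scaled to 1000000 UMIs of a class in a library, as mean ± SD over 5 libraries at E16.5 and 4 at P3. Values by library run in the order Jag1+/+ replicate 1, shared library, Jag1Ndr/+ replicate 1, Jag1Ndr/Ndr replicate 1 and Jag1Ndr/Ndr replicate 2 at E16.5, then libraries A, B, C and D at P3. Globin RNA, from red cells, made up 11.56% to 37.75% of hepatocyte-class UMIs in a library, a class that does not make it. Shares of cells with a UMI are therefore given after thinning every cell to 1000 UMIs, beside the share in erythroid cells (median depths by library were 2669 to 4942 UMIs in hepatocytes and 2593 to 9697 in erythroid cells). Library B also held pancreatic RNA, with Ctrb1 at 17.2 CPM against 0 in the 3 other P3 libraries, and 1 barcode with 27342 insulin UMIs was removed from it.

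IGF-I and IGF-II are growth factors related to insulin. IGF-I acts through the receptor tyrosine kinase encoded by Igf1r, whereas the product of Igf2r, which is also the cation-independent mannose 6-phosphate receptor, takes up IGF-II and delivers it to lysosomes. The binding proteins hold IGFs in the circulation and in tissue and set how much is free to reach a receptor. In adult liver, hepatocytes make most circulating IGF-I under growth hormone, and the fetal liver is at the same time the main site of blood formation.

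Of the binding protein genes, 4 lie in neighbouring pairs in the mouse genome (GRCm38, GENCODE M21). Igfbp1 (chr11:7197782-7202546, plus strand) and Igfbp3 (chr11:7206086-7213923, minus strand) are 3539 bp apart, and Igfbp2 (chr1:72824503-72852474, plus strand) and Igfbp5 (chr1:72857932-72874884, minus strand) are 5457 bp apart, with 0 annotated genes between the members of either pair. The 250 bases before the RefSeq start of each of these genes (GRCm38.p6; for Igfbp2, the first of 2 listed starts) are shown because, in hepatocytes, Igfbp1 rose and Igfbp3 fell after birth, and Igfbp2 rose where Igfbp5 was barely detected. They are written 5′ to 3′ on the strand of the gene. Capitals mark letters that match CAAAACA, known from insulin response elements bound by FOXO factors, GTTAAT, known from sites of HNF1 factors, or TATAAA, each searched on both strands.
Igfbp1 (chr11:7197537-7197786, plus strand): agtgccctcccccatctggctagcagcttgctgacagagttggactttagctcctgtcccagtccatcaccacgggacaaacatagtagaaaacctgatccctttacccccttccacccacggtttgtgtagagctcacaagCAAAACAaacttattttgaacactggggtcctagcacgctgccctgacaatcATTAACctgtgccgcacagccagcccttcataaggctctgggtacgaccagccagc
Igfbp3 (chr11:7213924-7214173, minus strand): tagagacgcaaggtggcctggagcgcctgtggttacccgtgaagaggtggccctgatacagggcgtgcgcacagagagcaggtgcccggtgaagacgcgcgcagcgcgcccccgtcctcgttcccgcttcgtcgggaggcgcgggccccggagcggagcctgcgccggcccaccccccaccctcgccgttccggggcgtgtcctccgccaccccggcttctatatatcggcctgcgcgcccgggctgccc
Igfbp2 (chr1:72824230-72824479, plus strand): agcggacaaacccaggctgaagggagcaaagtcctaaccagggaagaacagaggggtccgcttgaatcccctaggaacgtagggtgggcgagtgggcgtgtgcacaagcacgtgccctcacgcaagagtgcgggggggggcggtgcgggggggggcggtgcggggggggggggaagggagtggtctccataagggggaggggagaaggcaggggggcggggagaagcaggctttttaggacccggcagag
Igfbp5 (chr1:72874866-72875115, minus strand): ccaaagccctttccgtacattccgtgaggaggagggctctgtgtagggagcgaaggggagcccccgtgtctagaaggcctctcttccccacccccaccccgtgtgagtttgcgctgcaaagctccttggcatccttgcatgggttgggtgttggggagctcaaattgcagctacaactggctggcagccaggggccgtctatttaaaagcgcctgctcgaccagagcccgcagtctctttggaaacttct
In the Igfbp1 promoter CAAAACA lay on the plus strand of the gene at bases -108 to -102 from the start, and GTTAAT on the other strand at -56 to -51, with no overlap. Over the 32851 RefSeq promoters of 300 bases (250 before to 50 after a start), 6.28% held CAAAACA, 7.10% held GTTAAT and 13.6% held TATAAA. The last of these was found in the promoters of Igfbp4 (-28 to -23) and Igfbp6 (-148 to -143, opposite strand), and none of the 3 motifs in those of the other 7 members. CG dinucleotides numbered 8 in the Igfbp1 promoter and 37 in that of its neighbour Igfbp3, 18 in that of the first Igfbp2 start, 14 in that of the second, and 10 in that of Igfbp5, against a median of 7 over all promoters.

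The other members are Igf1 (chr10:87858265-87937042, plus strand), Igf1r (chr7:67952827-68233668, plus strand), Igf2r (chr17:12682406-12769664, minus strand), Igfbp4 (chr11:99041244-99054392, plus strand), Igfbp6 (chr15:102144362-102149511, plus strand) and Igfbp7 (chr5:77349240-77408041, minus strand). Antisense genes overlap 3 of them: Igf1os overlaps Igf1, Airn overlaps Igf2r, and Polr2b and Gm34648 overlap Igfbp7. Igf1os, Airn and Gm34648 were in the E16.5 gene list and not in that of P3. Whether counting used the strand is not given in the sources used here, and the part of these genes in the values was not tested.

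The genes divided the liver's cell classes between them. At both stages Igf1 was highest in macrophages, Igf1r in basophils and mast cells, Igfbp1 in hepatocytes, Igfbp4 and Igfbp7 in endothelial cells, and Igfbp3, Igfbp5 and Igfbp6 in mesenchymal cells. The leading class changed for Igf2r, from hepatocytes at E16.5 to mesenchymal cells at P3, and for Igfbp2, from mesenchymal cells to hepatocytes. The libraries of the leading class lay apart from those of the next class for Igf1, Igf2r, Igfbp1, Igfbp3, Igfbp4 and Igfbp7 at E16.5, and for all 10 genes at P3. For Igf1r, Igfbp2, Igfbp5 and Igfbp6 at E16.5 the leading class overlapped the next. The mesenchymal lead for Igfbp2 at E16.5 rested on few cells. Of the class's Igfbp2 UMIs, 87.6% lay in 70 of its 927 cells, the Upk3b-rich cells described below. Without them the class had 2.1 ± 0.98 CPM.

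**Figure D1:**
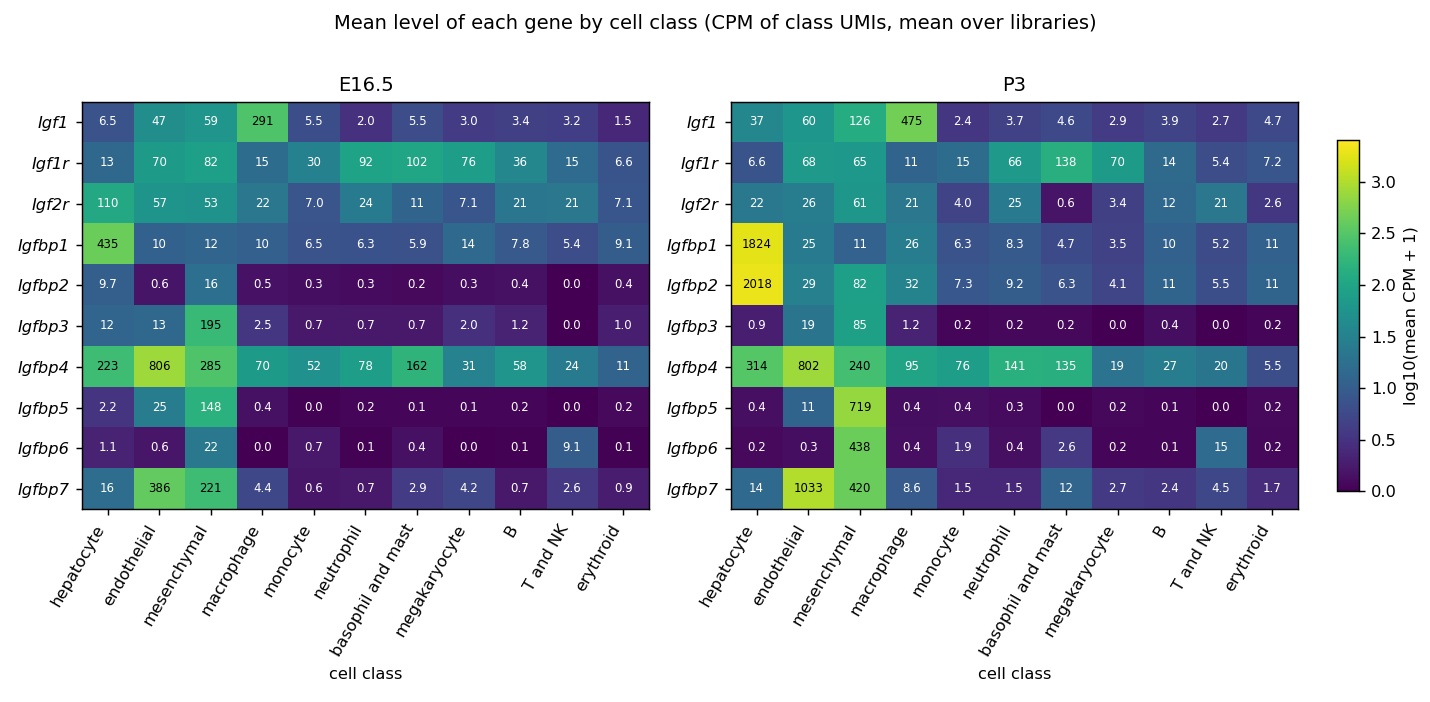
Mean CPM of each gene (rows) in each of 11 cell classes (columns) at E16.5 (5 libraries) and P3 (4 libraries), with colour on a log scale. Most genes have few classes far above the rest, and Igfbp2 in hepatocytes goes from 9.73 to 2018 CPM.

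Between stages, 44 of the 77 member-by-class pairs that passed the low-count filter differed, 19 higher and 25 lower at P3, by the quasi-likelihood test of edgeR, with p-values adjusted by Benjamini-Hochberg over all pairs of gene and class. Stage moved much of the transcriptome, with 43.6% of all 109845 pairs called (21.7% higher and 21.8% lower), so stage calls were not rare among genes in general. By class, 6 of 8 members tested were called in hepatocytes (3 higher and 3 lower, where 42.1% of all genes were called), 4 of 9 in endothelial cells (3 and 1; 33.9%), 5 of 10 in mesenchymal cells (3 and 2; 28.1%) and 4 of 8 in macrophages (1 and 3; 56.6%). Igfbp2 rose in all 7 classes tested, and Igf2r fell in 8 of 11 and rose in 0. Igfbp3 fell in 6 of 7 classes, and Igf1r fell in 6 of 10 and rose in 1. Outside hepatocytes, endothelial and mesenchymal cells, Igfbp3 was already low at E16.5. No cluster of the other classes had more than 2.97 CPM there, with UMIs pooled over libraries. The part of RNA from other cells was not tested, either in those falls or in the rise of Igfbp2 outside hepatocytes. Without TMM, the scaling between libraries, 41 pairs were called, 25 higher and 16 lower. The median log2 fold change of all genes then moved up by 0.22 over all classes and by 0.597 in macrophages. The count of all genes called in that setting is not given here, so the changed split is not a result about the members.

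**Figure D2:**
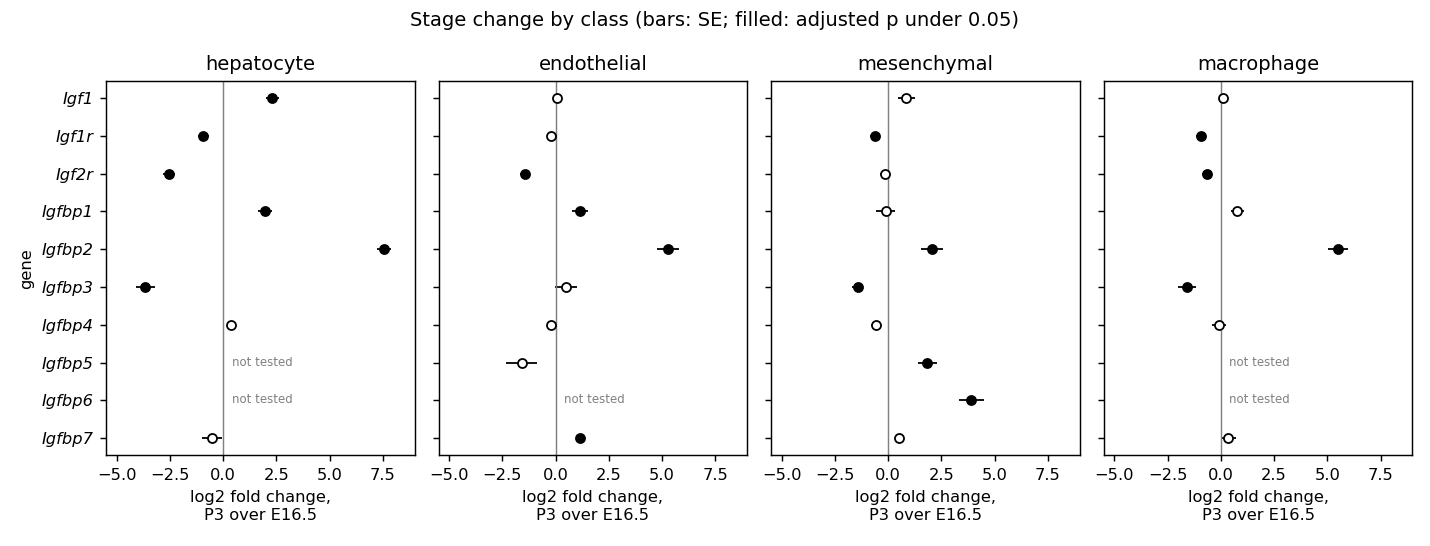
Log2 fold change from E16.5 to P3 of each gene in 4 cell classes, with bars of 1 SE and filled points where the edgeR adjusted p was under 0.05. Igfbp2 lies far to the right in hepatocytes (7.56), and Igf2r lies left of 0 in hepatocytes (-2.52) and endothelial cells (-1.46).

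Among the kept cells, Igf1, the ligand gene, was mainly a macrophage transcript. Macrophages held 76.8% of its UMIs at E16.5 and 77.3% at P3 (means over libraries), and hepatocytes 1.94% and 2.5%. Here and below, shares of a gene's UMIs by class are of the kept cells, not of the whole organ. Hepatocytes made up 3.83% to 10.1% of kept cells by library at E16.5 and 1.07% to 3% at P3. How fully each class was recovered from the liver was not tested. Macrophage Igf1 was 356, 309.8, 223, 251 and 316 CPM at E16.5 and 418, 459, 464 and 558 CPM at P3. Every P3 library lay above every E16.5 library, but the call turned on scaling: with TMM the log2 fold change by edgeR was 0.12, with an SE of 0.13 and an adjusted p of 0.50, against 0.71 (adjusted p = 0.0034) without it. After thinning, 16.4% of macrophages had an Igf1 UMI at E16.5 and 36.4% at P3, against 0.157% and 0.438% of erythroid cells (unthinned, 49.96% and 77.1% of macrophages). The C1q genes, defining markers of these macrophages, went from 3607 to 17819 CPM in the same class.

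Macrophages were not uniform for Igf1 at E16.5. A cluster of 804 cells led by Cd5l and C1qc, with Vcam1 among its leading genes, had 511 ± 66.8 CPM (SD, n = 5), and a cluster of 3748 cells led by C1qb and C1qa had 139 ± 25.5 CPM. The single macrophage cluster at P3, of 2845 cells, had 475 ± 59.2 CPM (n = 4). Median depths of these 3 clusters were 15028.5, 4308 and 4758 UMIs, and 3.1%, 14.8% and 6.1% of their barcodes were called doublets. Globin RNA made up 22.56% to 42.36% of macrophage-class UMIs by library at E16.5 and 5.41% to 12.47% at P3. The part of depth and of RNA from other cells in the Igf1 difference was not tested. Over the 11 classes at E16.5, the genes with the level most like that of Igf1 were Fcna, Il18bp and Cd5l (Pearson r of 0.981, 0.980 and 0.979 between log2 mean CPM, a description only, since the classes share libraries).

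Igf1 was low in hepatocytes, the source of most IGF-I in adults, but rose after birth. It was 11.2, 3.97, 8.05, 4.21 and 5.04 CPM at E16.5 and 26.7, 44.9, 40.5 and 36 CPM at P3. The stages did not overlap (log2 fold change 2.32, SE 0.32, edgeR adjusted p = 1.0e-04). The 9 macrophage markers summed to 52.7 to 185 CPM of the hepatocyte class at E16.5 and 137 to 418 CPM at P3, with 0 of the 9 at 0. Igf1 UMIs per 1000 C1q UMIs were 122 in hepatocytes and 80.7 in macrophages at E16.5, and 211 and 25.9 at P3. At E16.5 the hepatocyte ratio lay within the range of the 9 other classes (44.6 to 191). At P3 it lay above 23.7 to 53.5 in the other classes but mesenchymal cells, which had 535. In the hepatocyte cluster led by Alb, the albumin gene, Igf1 was 9.14 CPM at E16.5 and 57.1 CPM at P3 with UMIs pooled over libraries.

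Mesenchymal Igf1 was 63.1, 47.1, 31.9, 114 and 38.8 CPM at E16.5 and 201, 187, 45.6 and 69.6 CPM at P3, with overlap (0.85, SE 0.39, adjusted p = 0.093; 0.014 without TMM). In endothelial cells it was 46.7 ± 5.09 and 59.6 ± 16.4 CPM (0.06, SE 0.20, adjusted p = 0.83). Igf1 rose in erythroid cells (1.58, SE 0.26, adjusted p = 4.4e-04) and fell in monocytes (-1.21, SE 0.30, adjusted p = 0.0056), at mean levels of 4.71 CPM in erythroid cells and 2.42 CPM in monocytes at P3. In erythroid cells at P3, 1 cluster of 1306 cells held 294 of the 574 Igf1 UMIs, at a pooled 45.3 CPM, and the other 5 clusters had 2.18 to 4.04 CPM. The C1q genes went from 14.1 to 163 CPM in the erythroid class, with 28.9 Igf1 UMIs per 1000 C1q UMIs at P3 beside 25.9 in macrophages.

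Igf1r, the receptor for IGF-I, was spread over blood and stromal classes and low in hepatocytes. At E16.5 it was 102 ± 27.7 CPM in basophils and mast cells, 92.4 ± 25.8 in neutrophils, 82 ± 27.1 in mesenchymal cells, 76 ± 27.1 in megakaryocytes and 69.8 ± 22.4 in endothelial cells. Neighbours in this order overlapped between libraries. Neutrophils, being many, held 40.7% of Igf1r UMIs at E16.5 and 45.2% at P3. Hepatocyte Igf1r was 15.8, 15, 9.43, 9.28 and 15.3 CPM at E16.5 and 9.36, 8.11, 5.33 and 3.72 CPM at P3 (log2 fold change -0.92, SE 0.25, edgeR adjusted p = 0.0091). Library A lay just above the lowest embryonic library, and the other P3 libraries lay below all 5. After thinning, 0.987% of hepatocytes had an Igf1r UMI at E16.5 and 0.329% at P3, beside 0.772% and 0.667% of erythroid cells. The hepatocyte share at P3 was thus below the erythroid one. Erythroid clusters at P3 ranged from 0.908 to 13.8 CPM of Igf1r, pooled over libraries, and the level given by free RNA was not tested.

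Igf1r also fell in B cells (-1.59, SE 0.22, adjusted p = 1.3e-04) and monocytes (-1.03, SE 0.18, adjusted p = 5.2e-04). It fell in macrophages (-0.95), neutrophils (-0.66) and mesenchymal cells (-0.64) with TMM, and these calls were lost without it (adjusted p of 0.32, 0.067 and 0.45). The mesenchymal call was also lost without the libraries labelled homozygous (adjusted p = 0.091). It rose in basophils and mast cells (0.46, SE 0.18, adjusted p = 0.048), a call kept in 7 of the 17 alternative settings that change its counts or its fit. In endothelial cells it was 69.8 ± 22.4 and 68.2 ± 15.7 CPM (-0.23, SE 0.20, adjusted p = 0.36).

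Igf2r, whose product clears IGF-II and carries lysosomal enzymes, fell in hepatocytes and left the mesenchymal class as the highest. Hepatocyte Igf2r was 92.5, 159, 80.2, 72.4 and 148 CPM at E16.5 and 16.4, 11.9, 30.9 and 29.8 CPM at P3. Every P3 library lay below every E16.5 library (log2 fold change -2.52, SE 0.29, edgeR adjusted p = 2.3e-05). Hepatocytes held 25.7% of the Igf2r UMIs of all kept cells at E16.5 and 2.44% at P3, when neutrophils held 36.5%. At P3 hepatocytes were 1.07% to 3% of kept cells by library, and neutrophils 10.7% to 20.7%. After thinning, 4.65% of hepatocytes had an Igf2r UMI at E16.5 and 1.15% at P3, against 0.821% and 0.212% of erythroid cells. The class was not uniform. Its Alb-led cluster, with 25.9% and 15.2% of its cells, held 91.8% and 86.2% of its Igf2r UMIs. Pooled over libraries, Igf2r was 186 and 40.7 CPM there, and 19.2 and 4.37 CPM in the other hepatocyte cluster.

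Endothelial Igf2r was 57, 68.9, 42, 56.2 and 60.8 CPM at E16.5 and 18.9, 13.7, 25.7 and 45.8 CPM at P3 (log2 fold change -1.46, SE 0.22, edgeR adjusted p = 1.0e-04), and library D reached into the embryonic range. It fell in erythroid cells (-1.63), B cells (-0.96) and monocytes (-0.93) as well. In basophils and mast cells it was 9.86, 14.7, 11.7, 7.57 and 12.7 CPM at E16.5, and at P3 3 UMIs were found in library A and 0 in libraries B, C and D. Mesenchymal Igf2r was 53.2 ± 13.2 and 61.3 ± 17.6 CPM (-0.16, SE 0.23, adjusted p = 0.59), and its direction turned without TMM (0.24). Between classes of the same library, the stage change of Igf2r in hepatocytes differed by -2.48 on the log2 scale from that in mesenchymal cells and by -1.07 from that in endothelial cells. That in mesenchymal cells was 1.42 above that in endothelial cells. Each of these had a two-sided exact permutation p of 0.016 over 5 against 4 libraries, the smallest this design allows, and an adjusted p of 0.044 over 25 comparisons.

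The hepatocyte binding protein genes Igfbp1 and Igfbp2 both rose after birth, Igfbp2 from a level near nothing. IGFBP-1 is a liver protein whose gene is repressed by insulin and induced by fasting, and IGFBP-2 is a major binding protein of fetal and neonatal serum. Hepatocyte Igfbp2 was 5.44, 14.1, 9.09, 5.44 and 14.6 CPM at E16.5 and 2235, 1891, 1510.3 and 2434 CPM at P3 (log2 fold change 7.56, SE 0.32, edgeR adjusted p = 1.0e-08). The values rest on 33, 96, 79, 44 and 107 UMIs at E16.5 and 7881, 3031, 1416 and 1961 at P3. After thinning, 0.577% of hepatocytes had an Igfbp2 UMI at E16.5 and 46% at P3, against 0.0436% and 1.28% of erythroid cells (unthinned, 4.15% and 63.6% of hepatocytes).

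Hepatocyte Igfbp1 was already high in the embryo, at 267, 633, 307, 206 and 761 CPM, and stood at 1542, 1157, 1711 and 2884 CPM at P3. The stages did not overlap (log2 fold change 1.96, SE 0.34, edgeR adjusted p = 5.2e-04). Hepatocytes held 69.5% of Igfbp1 UMIs at E16.5 and 74.9% at P3. Both genes were concentrated in the Alb-led cluster, which held 1392 of 5371 hepatocytes at E16.5 and 185 of 1215 at P3. Pooled over libraries, Igfbp2 went there from 15.9 to 4323 CPM and Igfbp1 from 762 to 3324 CPM. In the other hepatocyte cluster, led by Fabp1, the pooled values were 2.56 and 583 CPM for Igfbp2 and 43 and 505 CPM for Igfbp1. The genes most like Igfbp1 over classes at E16.5 were Fgb, Afp and Ugt2b34 (r of 0.998, 0.997 and 0.997), hepatocyte transcripts, and those most like Igfbp2 were Agtr1a, Cdh2 and Rarres2 (r of 0.995, 0.987 and 0.985).

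**Figure D3:**
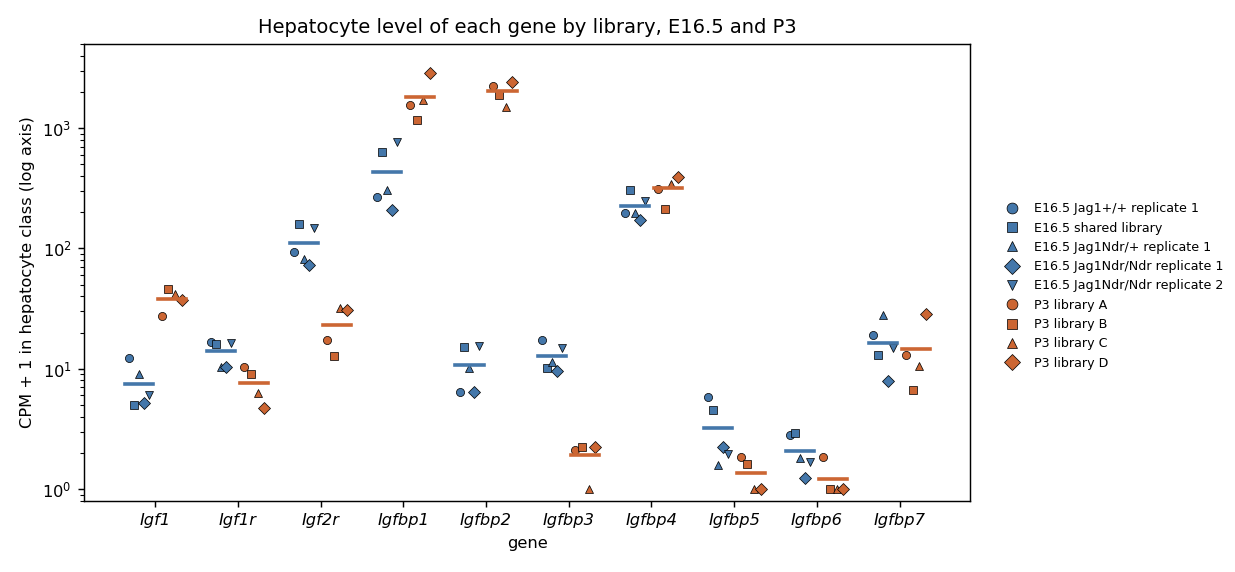
CPM plus 1 (log axis) of each gene in the hepatocyte class, with a point per library (5 at E16.5, 4 at P3) and a line at the mean. Igfbp2, Igfbp1 and Igf1 lie higher at P3 and Igf2r and Igfbp3 lower, without overlap between stages.

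Outside hepatocytes, Igfbp1 and Igfbp2 were found at low level, and at P3 their ratio in most classes was near that in hepatocytes. At P3 there were 1.27 Igfbp2 UMIs per Igfbp1 UMI in hepatocytes, 1.06 in erythroid cells, 1.14 in B cells, 1.33 in macrophages, 1.15 in neutrophils and 1.03 in endothelial cells. The extremes were 0.724 in dendritic cells, a class found at P3 only, and 1.83 in basophils and mast cells, the latter from 12 Igfbp1 UMIs. At E16.5 the ratio was 0.0227 in hepatocytes and higher in the same 5 classes, at 0.0433 to 0.0556. Igfbp2 rose between stages in erythroid cells, B cells, macrophages, neutrophils and endothelial cells, with log2 fold changes of 4.74, 4.54, 5.48, 4.90 and 5.28. At P3 there were 202, 221, 184, 213 and 154 Igfbp2 UMIs per 1000 Alb UMIs in these classes, beside 167 in hepatocytes. The values at E16.5 were 0.669 to 0.927, beside 0.29 in hepatocytes. The part of hepatocyte RNA in these rises was not tested. Within classes the level was uneven at P3. A neutrophil cluster of 325 cells led by Il1b and Cxcl2 had 131 CPM of Igfbp1 and 182 CPM of Igfbp2 with UMIs pooled over libraries, against no more than 19.4 and 16.1 CPM in the other neutrophil clusters. An endothelial sub-cluster of 56 cells with Dcn among its leading genes had 96.3 and 75.8 CPM, against no more than 44 and 46.6 CPM in the others. Both were singled out after their values were seen. Mesenchymal cells had another ratio, 1.36 at E16.5 and 6.45 at P3. The Upk3b-rich cells described below held 87.6% of the class's Igfbp2 UMIs at E16.5 and 66.8% at P3. Mesenchymal Igfbp2 was 34.2, 3.14, 17.6, 22.1 and 4.24 CPM at E16.5 and 98.4, 146, 73 and 12.7 CPM at P3, with overlap (log2 fold change 2.06, SE 0.52, edgeR adjusted p = 0.0046; DESeq2 adjusted p = 0.054).

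Igfbp3, which encodes the main carrier of IGFs in adult serum, was a mesenchymal transcript at both stages and fell in mesenchymal cells and hepatocytes. Hepatocyte Igfbp3 was 16.3, 9.12, 10.5, 8.53 and 13.9 CPM at E16.5 and 1.13, 1.25, 0 and 1.24 CPM at P3, the latter from 4, 2, 0 and 1 UMIs (log2 fold change -3.65, SE 0.44, edgeR adjusted p = 3.6e-05). Its neighbour Igfbp1 rose in the same cells. Mesenchymal Igfbp3 was 230.3, 259.8, 107, 226 and 149 CPM at E16.5 and 128, 95.6, 54.7 and 63.3 CPM at P3 (log2 fold change -1.43, SE 0.26, edgeR adjusted p = 4.5e-04), with library A above the lowest embryonic library. The mesenchymal class held 49.6% of Igfbp3 UMIs at E16.5 and 50.4% at P3. Its make-up also changed. The Reln-rich cells described below, with a pooled 469 and 396 CPM of Igfbp3, gave 22.1% of the class's UMIs at E16.5 and 13.9% at P3. The Upk3b-rich cells, also described below, gave 11.4% and 35.7%. The part of this shift in the mesenchymal fall was not tested. Over classes at E16.5, Col14a1, Colec10 and Fbln5 ran most like Igfbp3 (r of 0.995, 0.992 and 0.989).

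Igfbp4, whose product is cut by the protease PAPP-A to release IGF, was found in many classes and led in endothelial cells. Endothelial Igfbp4 was 961, 958, 551, 860.5 and 699.8 CPM at E16.5 and 729, 781, 940.3 and 759 CPM at P3, and the stages overlapped (log2 fold change -0.24, SE 0.15, edgeR adjusted p = 0.21). Hepatocyte Igfbp4 was 223 ± 53.1 and 314 ± 78 CPM (0.36, SE 0.18, adjusted p = 0.13). It rose in neutrophils, from 78 ± 29.6 to 141 ± 25 CPM (0.71, SE 0.19, adjusted p = 0.0095; 0.10 without the libraries labelled homozygous), and fell in B cells (-1.33, SE 0.23, adjusted p = 5.7e-04). Neutrophils numbered 9306 cells at E16.5 and 10786 at P3 and held 17.9% and 44% of Igfbp4 UMIs. After thinning, 41.8% and 51.2% of endothelial cells had an Igfbp4 UMI, against 1.21% and 0.617% of erythroid cells.

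Igfbp7, whose product binds IGFs only weakly and lies in the matrix around vessels, rose in endothelial cells, though not there alone. Of 8 classes tested it was called higher in 3 and lower in 0, with log2 fold changes from -0.513 to 1.78 over the 8. Endothelial Igfbp7 was 431, 374, 343, 469 and 311 CPM at E16.5 and 990.2, 920.4, 1327 and 893 CPM at P3, with no overlap (log2 fold change 1.16, SE 0.18, edgeR adjusted p = 1.3e-04). After thinning, 24.1% of endothelial cells had an Igfbp7 UMI at E16.5 and 54.3% at P3, against 0.102% and 0.19% of erythroid cells. Endothelial cells held 61.3% and 68.7% of Igfbp7 UMIs, and the genes most like it were Adamts1, Col4a1 and Oit3 (r of 0.995, 0.989 and 0.988). The 10 mesenchymal markers summed to 23 to 42.7 CPM of the endothelial class at E16.5 and 181 to 656 CPM at P3, with up to 3 and 1 of them at 0, and their part in the result was not tested. In mesenchymal cells Igfbp7 was 218, 203, 243, 258 and 184 CPM at E16.5 and 367, 536, 461 and 316 CPM at P3. The stages did not overlap there, yet the call turned on scaling (0.51, SE 0.21, adjusted p = 0.062; 0.0012 without TMM). The endothelial lead is one between whole classes. Within the mesenchymal class, the Reln-rich cells described below had 519.9 CPM of Igfbp7 at E16.5 and 1412 CPM at P3, pooled over libraries. The highest endothelial libraries had 469 and 1327 CPM.

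Igfbp5 and Igfbp6 rose in mesenchymal cells. IGFBP-5 binds extracellular matrix, and IGFBP-6 prefers IGF-II over IGF-I. Mesenchymal Igfbp5 was 106, 43, 116, 324 and 151 CPM at E16.5 and 747, 1196, 625 and 310.1 CPM at P3 (log2 fold change 1.84, SE 0.46, edgeR adjusted p = 0.0044), and library D fell inside the embryonic range. Mesenchymal Igfbp6 was 6.84, 10.5, 35.2, 51 and 7.27 CPM at E16.5 and 813, 543, 287 and 108 CPM at P3, with no overlap (log2 fold change 3.89, SE 0.59, edgeR adjusted p = 1.0e-04). The class held 88.4% of Igfbp5 UMIs and 65.4% of Igfbp6 UMIs at P3, and T and NK cells, at 14.5 ± 2.77 CPM, held 18.1% of Igfbp6. In hepatocytes, where its neighbour Igfbp2 rose, Igfbp5 was 2.21 ± 1.84 CPM at E16.5 and 0.369 ± 0.436 CPM at P3 and did not pass the filter on low counts.

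The mesenchymal class, with 927 cells at E16.5 and 286 at P3, held distinct kinds of cell that divided these genes. Cells rich in Upk3b, a gene known from the mesothelium that covers organs, made up 70 cells at E16.5 (4.17% to 11% of the class by library) and 82 at P3 (10.6% to 35.4%). Upk3b was 557 CPM in their sub-cluster at E16.5, where it was not among the 10 leading genes, and 0 to 1.2 CPM in the other 4 sub-clusters, and 1127 to 1243 CPM in their 2 sub-clusters at P3 and no more than 125.8 CPM in the other 5 (CPM of Upk3b and Reln are over the stage's whole gene list). The Upk3b-rich cells carried 94.4% of the class's Igfbp5 UMIs and 99.4% of its Igfbp6 UMIs at E16.5, and 78% and 81.3% at P3. The sub-cluster with the highest Reln, a gene known from hepatic stellate cells, at 836 CPM at E16.5 and 1174 CPM at P3, is called Reln-rich. Its cells numbered 170 and 55 and carried 57% and 52.3% of Igfbp3. In the other sub-clusters Reln was 14.9 to 139.6 and 0 to 96.7 CPM, and one of 374 cells at E16.5 that had Reln among its leading genes had 99.8 CPM of Igfbp3. The sub-clusters were formed without the 10 genes and singled out after their values were seen, so these are descriptions.

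In the Upk3b-rich cells, pooled over libraries, Igfbp5 was 1225 CPM at E16.5 and 1770.4 CPM at P3, whereas Igfbp6 was 196 and 1413 CPM. In the Reln-rich cells Igfbp5 was 8.5 and 7.7 CPM, Igfbp3 469 and 396 CPM, and Igfbp7 519.9 and 1412 CPM. With the Upk3b-rich cells left out, the class had 0.128 ± 0.285 CPM of Igfbp6 at E16.5 and 117 ± 110.0 CPM at P3 (278, 87, 29.7 and 73.7 CPM in libraries A, B, C and D), and 9.13 ± 3.97 and 216 ± 109.6 CPM of Igfbp5. Igfbp3 was then 205 ± 65.4 and 93.9 ± 32.2 CPM, and Igfbp2 2.1 ± 0.98 and 43 ± 25.9 CPM. The 6 mesothelial markers summed to 97.3 to 314 CPM of the whole class at E16.5 and 494 to 1651 CPM at P3, with 0 of the 6 at 0. Within P3, library D had the lowest marker sum and the least Igfbp5 and Igfbp6, and library C had the highest marker sum but less of both genes than libraries A and B. The part of these cells in the stage change was not tested.

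**Figure D4:**
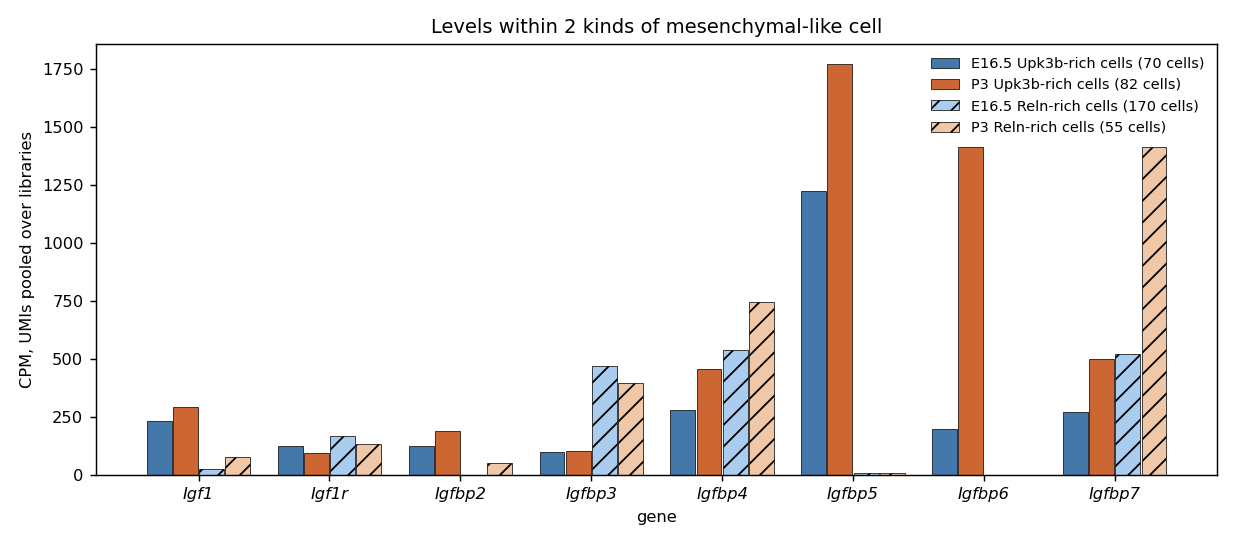
CPM, with UMIs pooled over libraries, in Upk3b-rich and Reln-rich cells of the mesenchymal class at E16.5 and P3. Igfbp5 and Igfbp6 stand out in the Upk3b-rich cells (1770.4 and 1413 CPM at P3) and Igfbp3 in the Reln-rich cells (469 and 396 CPM at the 2 stages).

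The make-up of the binding protein transcripts was followed as the share of each gene in the summed Igfbp1 to Igfbp7 UMIs of a library, a measure that does not depend on scaling. In hepatocytes Igfbp1 went from 59.4% ± 8.91 to 42.8% ± 7.35, Igfbp2 from 1.38% ± 0.207 to 49.3% ± 8.14 and Igfbp4 from 34.3% ± 7.37 to 7.62% ± 1.42. In endothelial cells Igfbp4 went from 64.6% ± 3.1 to 42% ± 2.32 and Igfbp7 from 31.4% ± 4.36 to 53.6% ± 2.51, and the leading gene changed. In mesenchymal cells Igfbp3 went from 21.6% ± 6.03 to 4.59% ± 1.59, Igfbp5 from 15.9% ± 8.92 to 35.4% ± 5.64 and Igfbp6 from 2.35% ± 1.89 to 19.9% ± 8.84. Of the 21 shares, 14 differed between stages (7 in hepatocytes, 3 in endothelial and 4 in mesenchymal cells), each with a two-sided exact permutation p of 0.016 and an adjusted p of 0.024. The shares of a class sum to 100%, so these are not separate differences: in hepatocytes the shares of Igfbp1 and Igfbp4 fell beside the rise of Igfbp2, while the level of Igfbp1 rose and that of Igfbp4 was 223 and 314 CPM. With library A, B or C left out 0 passed, and with library D left out 16 passed, in designs whose smallest possible p is larger. The summed level in hepatocytes was 400.1 to 1052 CPM at E16.5 and 3266 to 5741 CPM at P3.

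**Figure D5:**
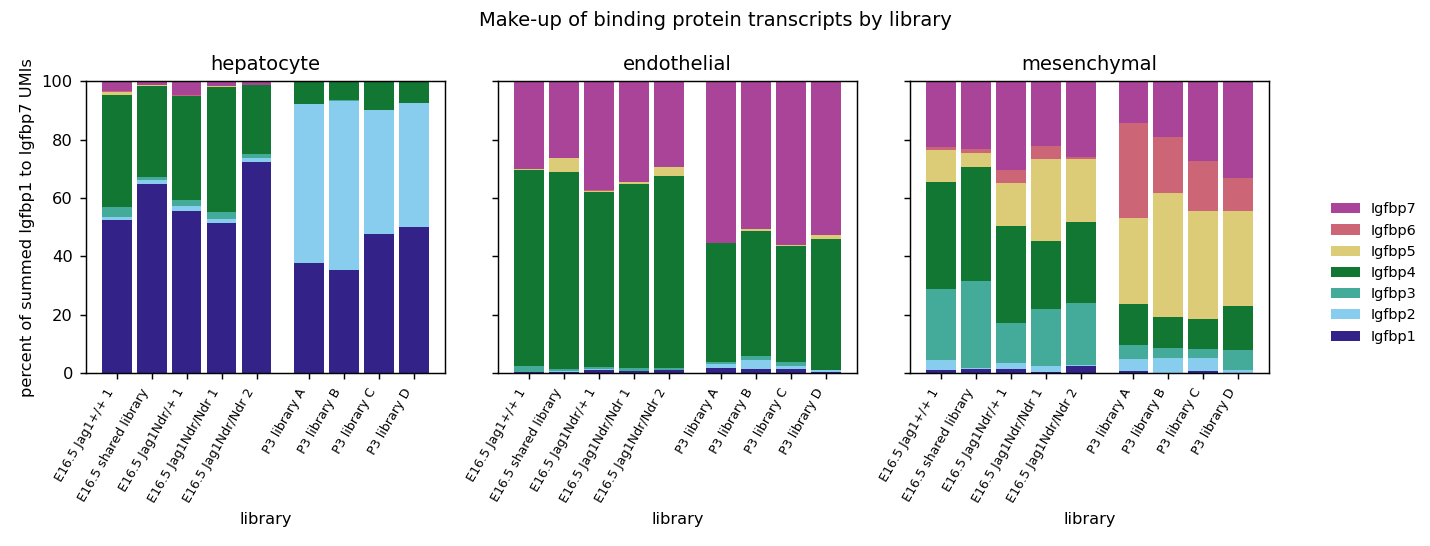
Share of each binding protein gene in the summed Igfbp1 to Igfbp7 UMIs of a library, stacked to 100%, in 3 cell classes. Igfbp2 makes up 49.3% of the hepatocyte total on average at P3 and 1.38% at E16.5.

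Stage changes were set against each other between 2 classes of the same library for 25 combinations of gene and class pair, and 9 passed (two-sided exact permutation p = 0.016, adjusted p = 0.044). Beside the 3 for Igf2r, the change in hepatocytes was above that in mesenchymal cells by 2.94 for Igfbp1 and 5.35 for Igfbp2 on the log2 scale, and differed by -1.58 for Igfbp3. From the change in endothelial cells it differed by 2.09 for Igf1, -0.91 for Igf1r and 3.53 for Igfbp2. Igfbp4 and Igfbp7 did not pass in any of the 3 class pairs. With any 1 library left out 0 of the 25 passed after adjustment, but the smallest p that the design allows is then larger.

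Among 34 other genes of the IGF pathway, 119 of 242 gene-by-class pairs were called between stages, 37 higher and 82 lower, where 43.6% of all pairs were called (21.7% higher and 21.8% lower). In hepatocytes 14 of 25 were called (5 higher and 9 lower, where 42.1% of all genes were called). Socs2, a feedback inhibitor of growth hormone signalling, rose from 5.92 ± 1.29 to 85.5 ± 6.86 CPM (3.67, SE 0.19). Igfals, whose product joins IGF and IGFBP-3 or IGFBP-5 in the circulating complex, rose from 5.03 ± 1.8 to 24.1 ± 18.2 CPM (1.92, SE 0.40). Its P3 range was 12.2 to 50.9 CPM, and without library D the log2 fold change was 1.36. Grb14, an adaptor that inhibits the insulin receptor, rose from 11.6 ± 3.29 to 42.7 ± 13.7 CPM (1.72, SE 0.22). Igf2bp1, which encodes an mRNA-binding protein of fetal tissue, fell from 27.9 ± 10.9 to 6.8 ± 5.06 CPM (-2.08, SE 0.36), and Adam12, a protease that cuts IGFBP-3 and IGFBP-5, was 3.00 ± 1.25 CPM at E16.5 and, at P3, rested on 1 UMI in 1 library with 0 in the 3 others (edgeR adjusted p = 0.0017).

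In mesenchymal cells 7 of 26 were called (5 higher and 2 lower, where 28.1% of all genes were called). Pappa, which encodes the protease PAPP-A, rose from 2.15 ± 2.01 to 26.4 ± 15.4 CPM (3.37, SE 0.51). The protease genes Htra1 and Htra3 rose from 1.75 ± 0.409 to 36.2 ± 25.5 CPM (3.95, SE 0.47) and from 6.2 ± 2.02 to 51.2 ± 19.5 CPM (2.68, SE 0.31). The mesothelial markers given above were also higher at P3 in the class, and their part was not tested. Socs2 rose there (0.89), a call lost without library A (0.56, adjusted p = 0.11). Igf2bp1 was 14.8 ± 3.92 (range 10.5 to 18.9) CPM at E16.5 and 11.1 ± 13.7 (range 3.97 to 31.6) CPM at P3, with 1 P3 library above all 5 embryonic ones, and its call (log2 fold change -1.48) was lost without TMM (adjusted p = 0.12), without library A or B (0.17 and 0.075) and without the libraries labelled homozygous (0.073). In endothelial cells 10 of 25 were called (3 higher and 7 lower, where 33.9% of all genes were called). There Socs2 rose (1.24), and Foxo3 (-1.31), Igf2bp1 (-1.29) and the stanniocalcin genes Stc2 (-1.87) and Stc1 (-1.23), whose products inhibit PAPP-A, fell. The Stc1 call was lost without TMM (adjusted p = 0.079), without the libraries labelled homozygous (0.083) and without library B, library C, the shared library or E16.5 Jag1Ndr/Ndr replicate 1 (0.083, 0.12, 0.074 and 0.058). In macrophages 11 of 22 were called (4 higher and 7 lower, where 56.6% of all genes were called). Ghr, the growth hormone receptor gene, fell from a low level, 2.65 ± 0.853 CPM, to 0.719 ± 0.404 CPM (-2.40). Falls were also seen for Grb10, from 23 ± 2.79 to 7.89 ± 1.33 CPM (-2.11), and Foxo3, from 78.1 ± 22.5 to 30.4 ± 6.21 CPM (-1.95). Irs2 went from 15.3 ± 5.16 to 7.01 ± 2.39 CPM (-1.67). The 8 hepatocyte markers summed to 1489 to 2011 CPM of the macrophage class at E16.5 and 653 to 1200 CPM at P3, and their part was not tested.

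No member was called between genotypes at E16.5 in the main edgeR test, which has the filter on low counts and no replicate block. The 2 Jag1Ndr/Ndr libraries were compared with the 3 others in 10 classes. There edgeR called 0 of 74 member-by-class pairs (0 called by DESeq2), beside 0.000943% of all 106099 pairs, which is 1 pair. At an unadjusted p under 0.05 by edgeR were 5 of the 74 member pairs, beside 1858 of all 106099 pairs. Of those 5, the lowest p was that of Igfbp5 in mesenchymal cells, at 324 and 151 CPM in the Jag1Ndr/Ndr libraries and 106, 43 and 116 CPM in the others. The genotypes did not overlap for this gene (log2 fold change 1.41, SE 0.40, unadjusted p = 0.0025, edgeR adjusted p = 1.00). It was called without the filter on low counts (adjusted p = 2.6e-05) and with the replicate number as a block (1.75, adjusted p = 0.027), and the log2 fold change was 0.76 without Jag1Ndr/Ndr replicate 1. In the same order of libraries, the 6 mesothelial markers summed to 314 and 195 CPM of the class in the Jag1Ndr/Ndr libraries and 97.3, 97.4 and 204 CPM in the others, and their part in the difference was not tested.

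At P3, genotype could be set side by side only for library C (Jag1Ndr/Ndr) and library D (Jag1Ndr/+), so there is no replicate check and no test, and the exact Poisson intervals cover counting error only. Hepatocyte Igfbp1 was 1711 CPM (95% interval 1628 to 1797) in C and 2884 CPM (95% interval 2768 to 3004) in D. Hepatocyte Igfbp2 was 1510.3 CPM (95% interval 1433 to 1591) in C and 2434 CPM (95% interval 2327 to 2544) in D. Both were lower in C, by less than 2-fold, in a class where 13.9% of genes were past 2-fold. The 8 hepatocyte markers of the class summed to 72952 CPM in C and 115960 CPM in D, and the 11 erythroid markers to 233230 and 117210 CPM, and their part in the difference was not tested. Endothelial Igfbp7 was 1327 CPM (95% interval 1251 to 1406) in C and 893 CPM (95% interval 812 to 979) in D, in a class with 9.66% of genes past 2-fold. The 10 mesenchymal markers summed to 656 CPM of the endothelial class in C and 181 CPM in D. Their part in this difference, and in those of other endothelial genes below, was not tested. Mesenchymal Igfbp5 was 625 CPM (95% interval 525 to 739) and 310.1 CPM (95% interval 229 to 409.9), and Igfbp6 287 CPM (95% interval 221 to 368) and 108 CPM (95% interval 62.7 to 172). These 2 genes were past 2-fold, as were 32.0% of mesenchymal genes. The 6 mesothelial markers summed to 1651 CPM of the class in C and 494 CPM in D, and their part was not tested. Another 4 pairs were past 2-fold. Endothelial Igfbp1 was 35 CPM (95% interval 23.6 to 50.025) in C and 5.98 CPM (95% interval 1.23 to 17.5) in D, and endothelial Igfbp3 33.9 CPM (95% interval 22.7 to 48.6) and 1.99 CPM (95% interval 0.0505 to 11.1), with intervals apart. Hepatocyte Igfbp7 was 9.6 CPM (95% interval 4.39 to 18.2) and 27.3 CPM (95% interval 17.1 to 41.3), and mesenchymal Igfbp2 73 CPM (95% interval 41.7 to 118) and 12.7 CPM (95% interval 1.53 to 45.7), with overlapping intervals. In D the values of endothelial Igfbp1 and Igfbp3 and of mesenchymal Igfbp2 rest on 3, 1 and 2 UMIs. Endothelial Igfbp4 was 940.3 CPM (95% interval 876 to 1008) in C and 759 CPM (95% interval 685 to 839.5) in D, and macrophage Igf2r 18 CPM (95% interval 13.1 to 24.2) and 34.4 CPM (95% interval 27 to 43.1), both with intervals apart. Macrophage Igf1 was 464 CPM (95% interval 438 to 492) in C and 558 CPM (95% interval 527 to 591) in D, where 2.43% of genes were past 2-fold. Libraries A and B, of unclear genotype, differed from each other as well, at 1542 and 1157 CPM for hepatocyte Igfbp1 and 813 and 543 CPM for mesenchymal Igfbp6.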

How the data were processed

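Whole-liver cell suspensions of 12 samples were deposited by the authors as 10x Genomics matrices of raw UMI counts, with no normalization. Per the submitters' processing notes, Cell Ranger 2.1.1, R 4.1.2 and Seurat were used with mm10, whereas per the file headers the matrices come from Cell Ranger 3.1.0 (E16.5) and 3.0.2 (P3). The strand setting is not given in the sources used here. The matrices labelled P3 Jag1Ndr/+ replicate 2 and P3 Jag1Ndr/Ndr replicate 2, which lie largely within other matrices, were not used, leaving 9 libraries.

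A barcode was kept if it had 1000 UMIs or more, no more than 15% of them mitochondrial. Doublets called by Scrublet within scanpy 1.11.5 were removed (4.11% to 13.42% of barcodes per library), as were clusters in which at least 50% of barcodes were called. Cells of each stage were clustered by Leiden at resolution 1 on 2000 genes, 30 components and 15 neighbours, without the 10 members, mitochondrial and sex-linked genes, and classes were named from marker lists. UMIs were summed per library and class, with at least 20 cells required. The stage test (5 against 4 libraries) and the genotype test (2 against 3) used edgeR 4.0.16 in R 4.3.3 (filterByExpr, TMM, quasi-likelihood test, Benjamini-Hochberg adjustment over all pairs of gene and class). Shares and differences between classes used exact two-sided permutation tests over libraries, the latter on log2(CPM + 1) for genes with at least 5 CPM in both classes. The tests were checked on simulated counts. P-values measure the spread between libraries.

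All 10 members are named. Pathway genes are named where called in the 4 classes discussed, at most 5 per class with the largest change (1 such result is not reported here), and the 3 genes most like a member were taken among those reaching 20 CPM in a class. The members and lists were chosen with earlier results of these data known. Alternatives were DESeq2 1.42.0, no filter, no TMM, doublets kept, 2000 UMIs, a replicate block, a pseudocount of 5 CPM, homozygous libraries left out, and each library left out. Sequences came from RefSeq (GRCm38.p6), in which all 10 members were matched.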

Additional observations from a re-analysis of the deposited data

Results flagged for a closer look

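In 1 of 70 groups of libraries examined, a single library stood far from the rest: Igf1r in basophils and mast cells at P3, where library B had 112 CPM, below the other 3 libraries. Chance alone gives about 1 in 20 groups such a gap.

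The change from E16.5 to P3 differed between 2 cell classes of the same libraries for 9 combinations, each by a two-sided exact permutation test of the difference (p = 0.016, adjusted p = 0.044). Between hepatocytes and mesenchymal cells, the differences on the log2 scale were -2.48 for Igf2r, 2.94 for Igfbp1, 5.35 for Igfbp2 and -1.58 for Igfbp3. Between hepatocytes and endothelial cells, they were 2.09 for Igf1, -0.91 for Igf1r, -1.07 for Igf2r and 3.53 for Igfbp2. Between mesenchymal and endothelial cells, the difference was 1.42 for Igf2r.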

How the results depend on the processing

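The calls in hepatocytes (Igf1, Igf1r, Igf2r, Igfbp1, Igfbp2 and Igfbp3) were kept in all 18 alternatives run, 2 of them chosen after seeing the data (the Alb-led hepatocyte cluster only, and globin genes left out). Those of Igfbp3, Igfbp5 and Igfbp6 in mesenchymal cells, and of Igf2r, Igfbp2 and Igfbp7 in endothelial cells, were kept in the same alternatives but that of the Alb-led cluster, which leaves the counts of those classes as they are. Of pairs of member and class, 44 were called between stages, and 48 with DESeq2, 54 without a filter, 41 without TMM and 35 to 44 with a library left out. Counts over all genes in these alternatives are not given here, and the run without a filter also tests more pairs. Without the libraries labelled homozygous, 30 pairs of member and class and 31786 pairs of any gene and class were called. The endothelial Igfbp1 call was lost without library A, without library C and without the homozygous libraries, and the neutrophil Igfbp4 call without the homozygous libraries.

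Between genotypes 1 pair of gene and class was called, and 24 with DESeq2, 185 without a filter, 2 without TMM and 0 to 63 with a library left out, and 1 pair of member and class was called without a filter. The 3 pairs of same-numbered E16.5 libraries had correlations of 0.356, -0.133 and 0.195 in hepatocytes, 0.247, 0.039 and 0.255 in erythroid cells and 0.236, -0.017 and 0.204 in neutrophils. Not every pair was above 0.1 in any of these classes. The correlations are of deviations from group means, and those of the 2 Jag1Ndr/Ndr libraries mirror each other (0.356 and -0.356 in hepatocytes against Jag1+/+ replicate 1). The check therefore cannot exclude pairing. The main tests treated the libraries as unpaired, and results with a replicate block are given beside them. With a replicate block, 41 pairs of member and class and 46571 of any gene and class were called between stages, and 1 (Igfbp5 in mesenchymal cells) and 6 between genotypes. Igfbp shares that differed numbered 14, and 0 to 16 with a library left out. Stage changes that differed between classes numbered 9, 8 with doublets kept or at 2000 UMIs, 9 at a pseudocount of 5 CPM, and 0 with any library left out, when the smallest p the design allows is larger.

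Directions turned only for values that were not called. With a library left out, Igf1 in endothelial cells ranged from -0.0756 to 0.1731, Igfbp4 in macrophages from -0.6122 to 0.1194, Igfbp1 in mesenchymal cells from -1.1765 to 0.1308, and Igf1 in mesenchymal cells between genotypes from -0.1771 to 1.3906. Igf1 in endothelial cells became -0.0044 without a filter and -0.0135 with the replicate block. Without TMM, Igfbp4 in macrophages became 0.4582 and Igfbp1 in mesenchymal cells 0.2695. Igf2r in mesenchymal cells became 0.2443 without TMM and 0.0299 without the homozygous libraries, where Igfbp3 in endothelial cells became -0.1449. The cause was not tested. Depth limits the low values, such as hepatocyte Igfbp3 and Igf1r at P3.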

Other observations

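The endothelial class was mixed for Igf1 and Igfbp5. With UMIs pooled over libraries, a sub-cluster of 118 cells at E16.5, led by Fabp4, Mest and Lyve1, had 168 CPM of Igf1, and a sub-cluster of 79 cells led by Gja5 had 21.3 CPM. Igfbp5 was 106 CPM in that Gja5-led sub-cluster (0 to 192 CPM by library) and 199 CPM in 1 of 62 cells led by Fabp4 and Lyve1 (32.2 and 375 CPM in the 2 libraries with at least 10 of its cells), and 2.56 to 23.3 CPM in the other 8 sub-clusters. At P3, 41 cells led by Ptprb, with Rspo3 and Fbln2 among their leading genes, had 174 CPM of Igf1, and 56 cells that also had the mesenchymal gene Dcn among their leading genes had 168 CPM. The other 4 sub-clusters had 15.2 to 32.6 CPM. These sub-clusters were singled out after their values were seen.

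Over all kept cells of a library, Igfbp2 went from 0.912 ± 0.235 CPM at E16.5 (SD, n = 5) to 41.8 ± 18.9 CPM at P3 (n = 4), and Igfbp1 from 27.4 ± 14.5 to 35.8 ± 12.0 CPM. Igf1r was 30.4 ± 12.8 and 28.3 ± 2.70 CPM. Igfbp3 went from 3.14 ± 0.864 to 0.767 ± 0.452 CPM. These totals also carry the change in the make-up of the cells.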
